A study of Rattus norvegicus with 16 samples.

Results

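The interferon response of rat pancreatic islets was followed through 8 genes of interferon signalling and antiviral defence: Irf1, Irf7, Stat2, Mx1, Mx2, Oas1a, Gbp2 and Eif2ak2. They were represented by all probe sets to which the platform annotation gave 1 of these symbols, which came to 10 of the 15923 probe sets on the array, for 8 of the 10412 genes with a probe set of their own. No expression value entered the step from symbol to probe set, but the 8 genes were chosen with earlier results of these data known. The islets had received an adenovirus that carried PPARγ (peroxisome proliferator-activated receptor gamma, a lipid-sensing transcription factor) or an adenovirus without it, called the null virus. The dose was 50 viral particles a cell and infection lasted 32 h. A further 16 h were spent in 200 nM GW347845, a PPARγ agonist, or in the vehicle, 0.004% DMSO. The groups were PPARγ virus with compound (4 arrays), PPARγ virus with vehicle (4 arrays), null virus with compound (3 arrays, replicates 1, 3 and 4) and null virus with vehicle (3 arrays, replicates 1, 3 and 4). All groups carried adenovirus, so no level here is set against uninfected islets. The sources used here name neither the strain of rat nor the origin of the viral PPARγ cDNA.

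Interferons bind receptors on the cell surface and act through Janus kinases, which phosphorylate STAT proteins. Type I interferon leads to a complex that holds Stat2 and Irf9 and binds the interferon-stimulated response element (ISRE) in promoters of antiviral genes. Interferon gamma acts through the gamma-activated site (GAS). Islet cells, beta cells among them, respond to both kinds of interferon, and adenovirus is among the viruses that cells detect through nucleic acid sensors.

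The promoters of the members were searched for the core letters of these 2 elements, the elements named above through which interferons act. RefSeq promoters on the GRCr8 assembly, 250 bases before to 50 bases after each gene's start, were at hand for 7 of the 8 members, all but Mx2. The ISRE core was taken as GAAA followed after any 2 bases by GAAA, and the GAS core as TTCNNNGAA, each on both strands. The ISRE core stood in 4 of the 7 promoters, against 3.92% of all 33469 promoters of the same length. The GAS core stood in 2 of the 7, against 8.87% of all promoters. Stat2 and Mx1 had neither string of letters in this window. The stretches that hold the matches follow 5′ to 3′ on the strand of the gene, with the match in capitals and up to 20 bases on each side. In the Oas1a ISRE stretch, a pair of overlapping matches forms a single run of capitals.
Irf1, GAS core, chr10:38417773-38417821, plus strand: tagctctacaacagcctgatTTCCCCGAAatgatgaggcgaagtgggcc
Irf7, ISRE core in reverse orientation, chr1:205800063-205800112, minus strand: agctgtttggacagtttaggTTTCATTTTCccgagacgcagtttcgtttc
Oas1a, ISRE core, chr12:41330405-41330460, plus strand: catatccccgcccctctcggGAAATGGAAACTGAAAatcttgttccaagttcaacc
Oas1a, GAS core, chr12:41330247-41330295, plus strand: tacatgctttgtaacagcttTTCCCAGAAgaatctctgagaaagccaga
Gbp2, ISRE core in reverse orientation, chr2:234005676-234005725, plus strand: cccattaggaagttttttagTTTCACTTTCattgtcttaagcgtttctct
Eif2ak2, ISRE core, chr6:21941118-21941153, plus strand: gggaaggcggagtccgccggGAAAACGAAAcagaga
These matches describe letters in a window and were not tested for binding.

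Intensities are linear values, scaled by the authors so that the trimmed mean of each array was the same. A probe set was tested if 4 or more of the 14 arrays exceeded 39.3, the 40th percentile of all values. Of the 10 member probe sets, 8 met this condition, and they stand for 7 genes. Mx1 and the second Mx2 probe set did not. Log2 changes are on the scale log2(intensity + 4.6), which understates changes of low intensities. Errors of log2 changes are standard errors, and adjusted p-values are limma's with Benjamini-Hochberg adjustment over all 10078 tested probe sets. Levels of different probe sets cannot be set against each other, since each probe set has its own response. In whole islets, fewer cells of a type and less RNA per cell cannot be told apart.

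The Pparg probe set had 4593.4 to 6199.1 (median 5740.4) in the 8 PPARγ virus arrays, against 25.6 to 51.4 (median 31.4) in the 6 null virus arrays. A further array was deposited with identical values under both null virus labels as replicate 2, and it entered no group. The labels do not say that replicates came from separate islet preparations, so p-values measure the spread between these arrays, which may be technical. Insulin and the other beta cell markers were measured on every array, with a summed intensity of 12708.4 to 17807.7 in PPARγ virus arrays and 15187.5 to 20089.1 in null virus arrays. Arrays of the same virus and number deviated together in vehicle and compound. The fit reported takes them as separate, so its errors and intervals for the virus in the mean of both incubations may be too small. The control probe sets' ratio of 3′ to 5′ signal for Gapdh, a sign of RNA degradation, was 18.9 in null virus compound replicate 3. It was 8.36 to 12.6 in the other 13 arrays. For beta-actin the ratio was 7.58 to 14.9, so signal was lower at the 5′ end on every array.

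None of the 8 tested probe sets passed the test in any of 8 contrasts. In the mean of both incubations, all 8 had a lower estimate under the PPARγ virus than under the null virus, as had 53.6% of all tested probe sets. The genes were chosen with earlier results of these data known, so this tally is a description only. Irf7 had a difference of -0.61 ± 0.22 (adjusted p = 0.257). Mx2 had -0.75 ± 0.19 (adjusted p = 0.0766), but it entered the test through the null virus arrays, with only 2 of 8 PPARγ virus arrays above 39.3. Under the compound, the estimates went in both directions. The levels below are ordered by role, starting with the transcription factors.

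**Figure D1:**
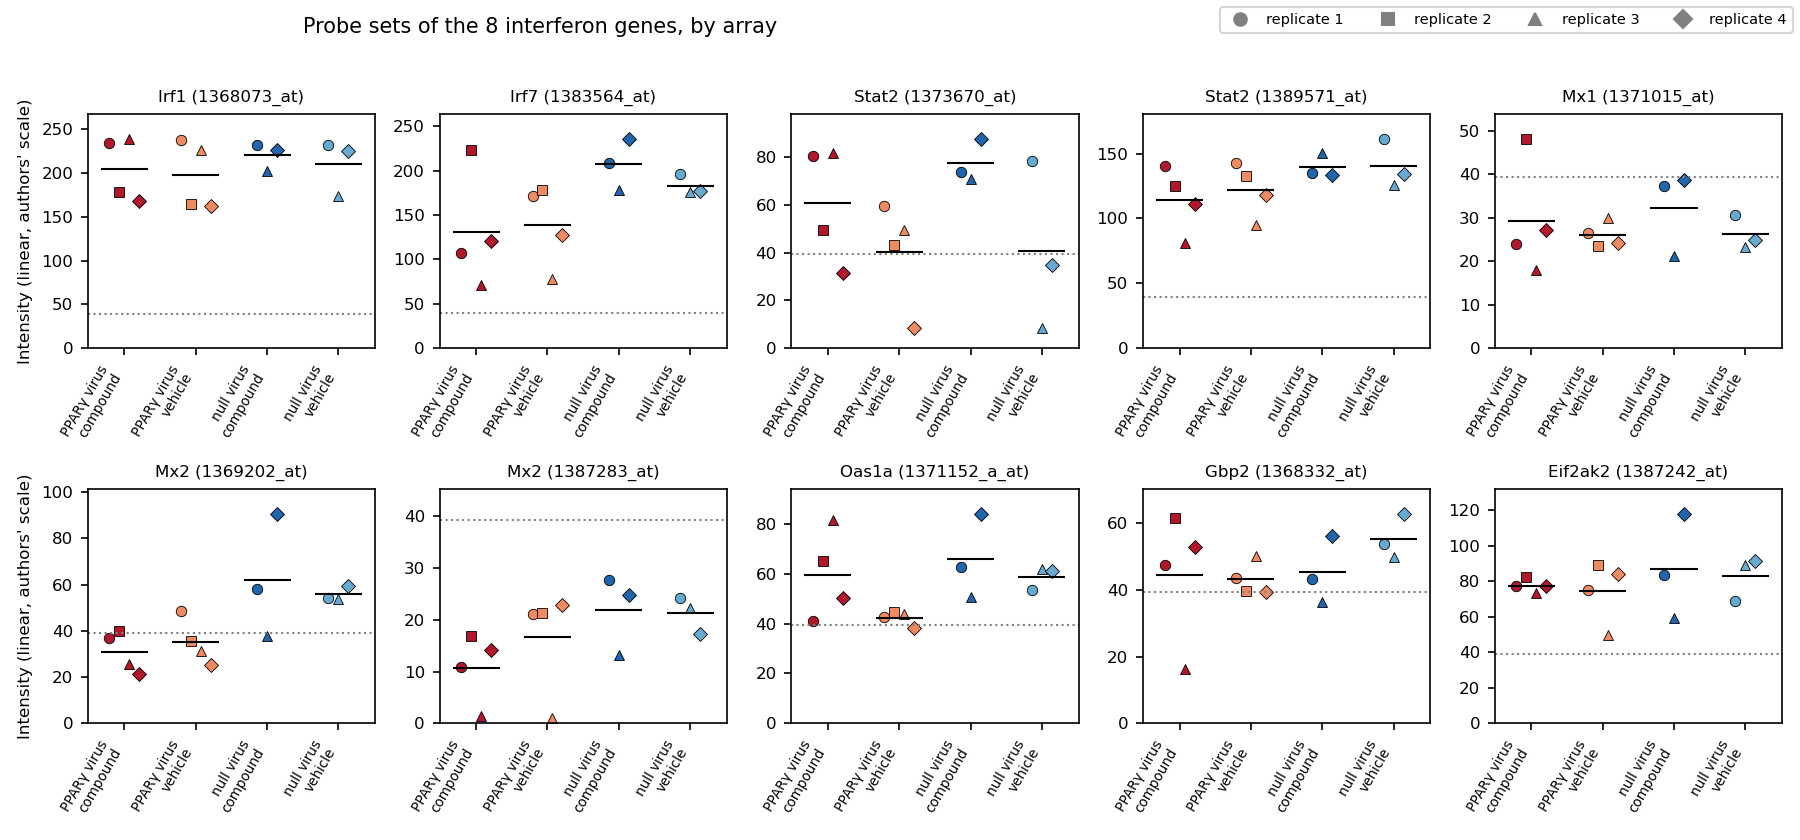
Intensity (linear, the authors' scale) of the 10 member probe sets on each of the 14 arrays. Columns are the 4 groups, symbols the replicate numbers, horizontal bars the group means and the dotted line the intensity of 39.3 above which a probe set counted as measured. Most groups overlap; the first Mx2 probe set lies at 21.5 to 48.6 under the PPARγ virus and 38 to 90.4 under the null virus.

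Irf1 (1368073_at) encodes a transcription factor that interferon gamma induces and that turns on genes of antigen processing. It had 234, 178.8, 238.9 and 168 in PPARγ virus compound arrays and 237.9, 165.2, 226.4 and 162.8 in PPARγ virus vehicle arrays, in the order of replicates 1 to 4. It had 232.8, 202.3 and 226.7 in null virus compound arrays and 232.8, 174.2 and 225.8 in null virus vehicle arrays, in the order of replicates 1, 3 and 4. The groups overlapped, and within the PPARγ virus the arrays numbered 2 and 4 were low in both incubations while those numbered 1 and 3 were high. The difference between viruses was -0.11 ± 0.12 in the mean of both incubations, with an adjusted p of 0.807. Its 95% interval was -0.37 to 0.15.

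Irf7 (1383564_at) encodes the transcription factor that amplifies type I interferon production after a first signal. It had 107.6, 223.2, 70.6 and 120.5 in PPARγ virus compound arrays and 170.9, 177.9, 78 and 127.5 in PPARγ virus vehicle arrays. It had 208.3, 177.7 and 235.3 in null virus compound arrays and 196.4, 175.5 and 176.7 in null virus vehicle arrays. PPARγ virus arrays numbered 3 were lowest in both incubations, and both arrays numbered 2 lay within the null virus range. Irf7 averaged 135 ± 52.5 over the PPARγ virus arrays (SD, n = 8) and 195 ± 23.7 over the null virus arrays (SD, n = 6). The limma difference was -0.61 ± 0.22 in the mean of both incubations (95% interval -1.08 to -0.13, unadjusted p = 0.0156) and did not pass after adjustment. It was -0.76 ± 0.31 between compound arrays and -0.45 ± 0.31 between vehicle arrays, with adjusted p-values of 0.452 and 1.00.

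With the arrays paired within each virus, Irf7 was not called in any contrast. Its adjusted p for the virus in the mean of both incubations reached 0.644 among the alternative fits. Without both PPARγ virus arrays numbered 3, the Irf7 difference was -0.36 with an adjusted p of 0.376. Without the 4 PPARγ virus arrays numbered 2 and 4, it was -0.92 and passed, with an adjusted p of 0.0311. Both choices of arrays were made after seeing the data. The first left out the lowest Irf7 values of the PPARγ virus groups. The second left out the highest, those numbered 2, along with those numbered 4, which were neither lowest nor highest. The directions of these shifts were thus set by the choice, and the pass is no support for a difference. The size of the Irf7 difference moved by over 1.5 times with which PPARγ virus arrays were kept.

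Stat2, a signal transducer of type I interferon, had a pair of probe sets that did not move alike. The first, 1373670_at, had 80.7, 49.4, 81.7 and 31.6 in PPARγ virus compound arrays and 59.7, 43.2, 49.5 and 8.5 in PPARγ virus vehicle arrays. It had 73.9, 70.8 and 87.6 in null virus compound arrays and 78.3, 8.5 and 35 in null virus vehicle arrays. It spanned 8.5 to 78.3 among the 3 null virus vehicle arrays alone and was above 39.3 on 10 of the 14 arrays. The compound arrays were higher than their vehicle partner of the same virus and number in 6 of 7 pairs. The mean difference between compound and vehicle was 0.95 ± 0.41 (unadjusted p = 0.0354, adjusted p = 1.00).

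The second Stat2 probe set, 1389571_at, had 140.7, 125.1, 81.3 and 110.9 in PPARγ virus compound arrays and 142.9, 132.7, 94.9 and 117.8 in PPARγ virus vehicle arrays. It had 134.9, 150.1 and 133.7 in null virus compound arrays and 161.1, 125.9 and 134.3 in null virus vehicle arrays. The compound array was the lower one in 6 of 7 pairs, and the difference between compound and vehicle was -0.05 ± 0.13. The direction of the Stat2 estimate with the compound thus depended on the probe set. Between viruses, the difference was -0.25 ± 0.13 for this probe set (adjusted p = 0.457) and -0.14 ± 0.41 for the first.

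Mx1 and Mx2 encode dynamin-like GTPases that block the multiplication of viruses inside cells. Mx1 (1371015_at) was above 39.3 on 1 array only, PPARγ virus compound replicate 2 at 48.1. On the other arrays it was 17.9 to 30 under the PPARγ virus and 21.2 to 38.6 under the null virus. It was not tested with the other probe sets; without the filter on low values its difference between viruses was -0.08 ± 0.19, with an adjusted p of 0.937.

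The first Mx2 probe set, 1369202_at, had 37, 40, 25.7 and 21.5 in PPARγ virus compound arrays and 48.6, 35.6, 31.2 and 25.4 in PPARγ virus vehicle arrays. It had 58.2, 38 and 90.4 in null virus compound arrays and 54.2, 53.8 and 59.4 in null virus vehicle arrays. Every PPARγ virus vehicle array was below every null virus vehicle array, while with the compound the null virus array numbered 3 lay inside the PPARγ virus range. Only 2 of 8 PPARγ virus arrays were above 39.3, against 5 of 6 null virus arrays, so the probe set entered the test through the null virus arrays. Mx2 averaged 33.1 ± 8.96 over the PPARγ virus arrays (SD, n = 8) and 59.0 ± 17.2 over the null virus arrays (SD, n = 6). The limma difference was -0.75 ± 0.19 (95% interval -1.16 to -0.34). Since most PPARγ virus values lay below 39.3 and the null virus arrays carried the probe set past the filter, this size is a description and not an exact fold.

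Mx2 did not pass after adjustment over all tested probe sets (adjusted p = 0.0766). Adjusted p was 0.232 for the compound arrays (-0.86 ± 0.27) and 1.00 for the vehicle arrays (-0.63 ± 0.27). The call in the mean of both incubations depended on the fit. Without null virus compound replicate 3 the adjusted p was 0.0344. That array held the lowest null virus value, 38, so leaving it out could only widen the difference. The pass is thus no support for a difference. With the arrays paired within each virus, the adjusted p was 0.367. The second Mx2 probe set, 1387283_at, was below 39.3 on all 14 arrays, at 1 to 22.9 under the PPARγ virus and 13.2 to 27.7 under the null virus. Without the filter, its difference was -0.70 ± 0.38 (adjusted p = 0.580).

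Oas1a (1371152_a_at) encodes a synthetase that, on double-stranded RNA, makes the oligoadenylates that activate RNase L. It had 41.2, 65.2, 81.6 and 50.3 in PPARγ virus compound arrays and 42.5, 44.5, 44 and 38.2 in PPARγ virus vehicle arrays. It had 62.8, 50.6 and 83.8 in null virus compound arrays and 53.3, 62 and 60.9 in null virus vehicle arrays. All 4 PPARγ virus vehicle arrays were below all 3 null virus vehicle arrays, whereas with the compound the viruses overlapped. The difference between viruses was -0.43 ± 0.21 in vehicle (95% interval -0.87 to 0.01) and -0.15 in compound, and neither passed. Compound against vehicle gave 0.41 ± 0.19 under the PPARγ virus (unadjusted p = 0.0480, adjusted p = 1.00) and 0.13 ± 0.22 under the null virus. The difference of these compound effects, the interaction, was 0.29 ± 0.29 and did not pass.

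Eif2ak2 (1387242_at) encodes PKR, a kinase that halts translation when it meets double-stranded RNA. It was at 50 to 89 in the PPARγ virus arrays and at 59.1 to 117.6 in the null virus arrays, and the groups overlapped. Its difference between viruses was -0.14 ± 0.15, with an adjusted p of 0.806. It was -0.018 without null virus compound replicate 4, -0.051 without PPARγ virus vehicle replicate 3 and -0.25 without null virus compound replicate 3. Gbp2 (1368332_at), a guanylate-binding protein induced by interferon gamma, was at 16.3 to 61.5 in the PPARγ virus arrays and at 36.5 to 62.7 in the null virus arrays. The 16.3 belonged to PPARγ virus compound replicate 3, and the other PPARγ virus arrays were at 39.4 or more. Its difference between viruses was -0.23 ± 0.22, with an adjusted p of 0.769, and without PPARγ virus compound replicate 3 it was -0.043.

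**Figure D2:**
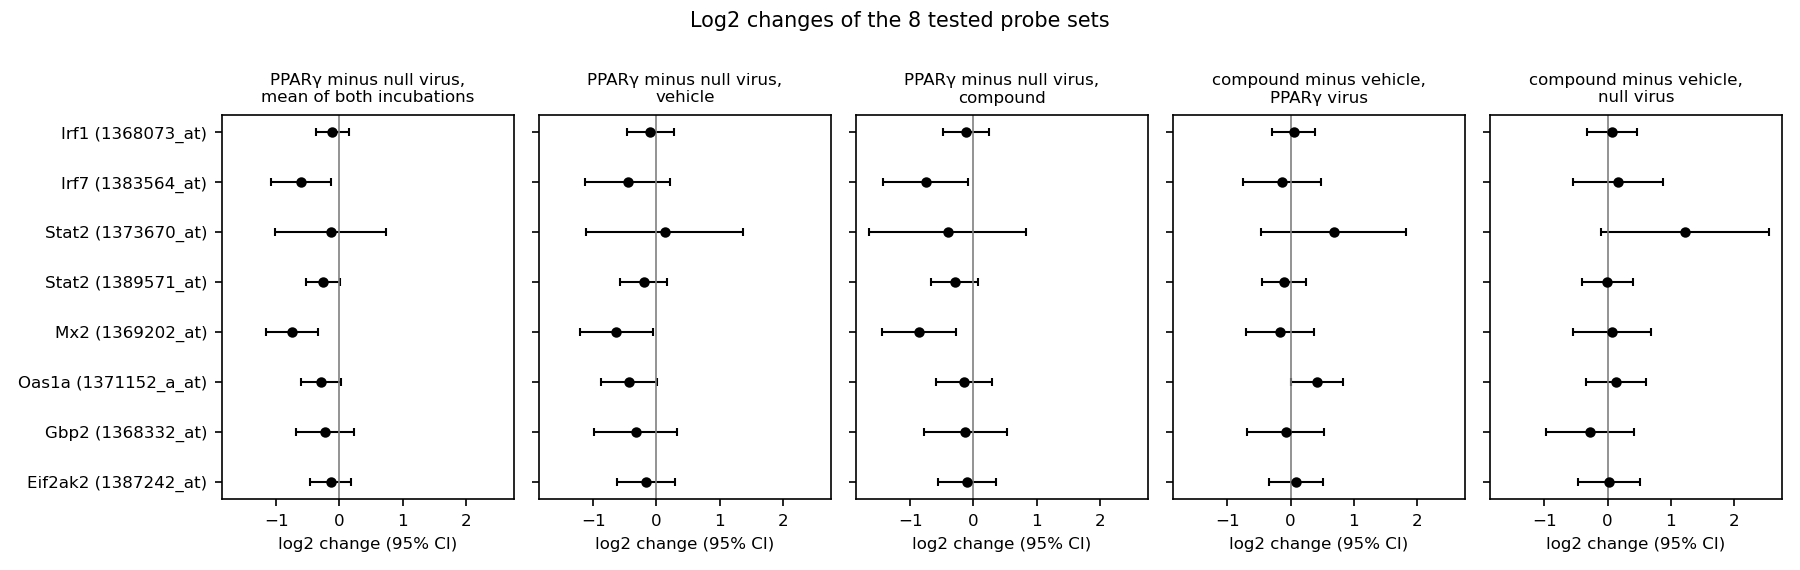
Log2 changes of the 8 tested member probe sets in 5 contrasts, as points with 95% confidence intervals from limma. Each panel's title names the contrast, and the vertical line marks 0. For the virus in the mean of both incubations, the intervals of Mx2 (-1.16 to -0.34) and Irf7 (-1.08 to -0.13) lie below 0 before adjustment, and no probe set passed after it.

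For the virus, the background was as follows. In the mean of both incubations, 0 of 8 member probe sets passed, with 1.53% of all tested probe sets called (154, of which 46 were lower, 0.456%). With the arrays paired within each virus as a random block, 50 probe sets were called in place of 154, and again no member. The unadjusted p was under 0.05 for 2 members, Mx2 and Irf7, and for 12% of all tested probe sets. The median member change was -0.24, against -0.01 over all tested probe sets, of which 53.6% had a lower estimate. The members were chosen with earlier results of these data known, and Stat2 counts through a pair of probe sets. Medians and directions of the members, here and in the contrasts below, are therefore descriptions only. A count of 0 of 8 is near the background share of calls.

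In vehicle, 0 of 8 members passed, with 0.0397% of all tested probe sets called. There 7 of 8 estimates were lower, with a median of -0.27 against 0.00 over all tested probe sets. Mx2 and Oas1a were lower without overlap of the groups, as were 2.17% of all tested probe sets. The array deposited under both null virus labels had 44.8 for Mx2 and 43.7 for Oas1a, below the highest PPARγ virus vehicle values of 48.6 and 44.5, so neither gene would stay free of overlap if that array were a vehicle array. With the compound, 0 of 8 passed, with 0.705% called; all 8 estimates were lower, with a median of -0.22 against -0.03. These contrasts share arrays with the mean of both incubations and are no separate evidence for it. The PPARγ virus with compound against the null virus with vehicle gave 0 of 8 calls as well, with 0.665% called. The Mx2 difference there was -0.79 ± 0.27 (adjusted p = 0.332) with no overlap of the groups, a lower position found for 4.89% of all tested probe sets.

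For the compound, 0 of 8 members passed under the PPARγ virus, with 0.0595% of all tested probe sets called, and 4 of 8 estimates were lower. Under the null virus, 0 of 8 passed, with 0% called by limma and 0.943% at an unadjusted p under 0.05. In the mean of both viruses 0 of 8 passed, with 0.0198% called. With the pairing as a fixed block, calls over all probe sets were 40 under the PPARγ virus in place of 6, and 14 in the mean of both viruses in place of 2, and no member was among them. The interaction gave 0 of 8 member calls, with 0% called (5 probe sets with that block, no member). At an unadjusted p under 0.05, the interaction had 1.42% of all probe sets and no member.

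The median half-width of the members' 95% intervals for the virus in the mean of both incubations was 0.37, against 0.26 over all tested probe sets. For the vehicle arrays alone it was 0.52, against 0.37.

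In the same pairs of virus and number, Irf1 was higher with compound in 5 of 7 pairs, Irf7 in 4, Mx1 in 4, the first Mx2 probe set in 3, Oas1a in 5, Gbp2 in 3 and Eif2ak2 in 4. No member was higher with the compound in all 7 pairs. In null virus replicate 1, both Irf1 values were 232.8. Such pairs were not counted over all tested probe sets, so these tallies, and those of Stat2 above, are descriptions only. Oas1a was lower with compound in PPARγ virus replicate 1 and null virus replicate 3.

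Other genes of interferon signalling were read from a list of which 57 genes were on the array and 42 were tested, each through the probe set of highest average intensity. For the virus in the mean of both incubations, 2 of 42 passed, both lower, against 1.53% of all tested probe sets called and 0.456% called lower. The list was written with earlier results of these data known, so its shares of calls and directions are descriptions only. Psmb9, a subunit of the immunoproteasome that prepares peptides for antigen presentation, averaged 135 and 151 in PPARγ virus arrays with compound and vehicle, against 220 and 225 in null virus arrays. It fell by 0.62 ± 0.10 on the log2 scale (adjusted p = 0.00554). Cxcl10, a chemokine that attracts T cells, averaged 243 and 202 in PPARγ virus arrays with compound and vehicle, against 360 and 328 in null virus arrays. It fell by 0.63 ± 0.11 on the log2 scale (adjusted p = 0.00795). Both passed in all 27 alternative fits of that contrast, including the paired ones (adjusted p = 0.0476 for Psmb9 and 0.0371 for Cxcl10 with a random block).

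Psmb9 also passed between compound arrays (-0.68 ± 0.14, adjusted p = 0.0417) and between PPARγ virus compound and null virus vehicle (-0.72 ± 0.14, adjusted p = 0.0306). Those calls were lost in 15 and in 9 of 28 alternative fits. Among compound arrays, 1 of 42 genes passed, against 0.705% of all tested probe sets, and in vehicle none, against 0.0397%. In vehicle, the lowest p-values were those of Cxcl10 (-0.70, adjusted p = 0.227), Psmb9 (-0.56) and Tap1 (-0.76), and on the higher side those of Irf3 (0.43), Tap2 (0.68) and Ifi35 (0.14). None of these passed.

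By role, the 13 other antiviral effectors tested had 12 lower estimates for the virus in the mean of both incubations, with a median of -0.15 and no call; 53.6% of all tested probe sets had a lower estimate. Among them were Ifi27 (-0.40, adjusted p = 0.0954), Oasl (-0.62, adjusted p = 0.0954), Ifit1 (-0.46, adjusted p = 0.175), Rsad2 (-0.40) and Isg20 (-0.27). These examples, and those of the other roles, were chosen after their values were seen. Ifit1 binds foreign RNA, and Rsad2, also called viperin, makes a nucleotide that ends viral RNA chains. Of 4 kinases and transducers, 1 was lower, Irf9 (-0.27, adjusted p = 0.303), and Irf3, which starts interferon production after infection, had 0.34. Of 3 receptors 2 were lower, of 5 sensors and adaptors 3, of 5 genes that restrain the signal 3, and of 12 genes of antigen processing and chemokines 9. Usp18, which removes Isg15 and blocks the type I receptor, had -0.35 (adjusted p = 0.335). Over the whole list, 30 of 42 estimates were lower, with a median of -0.07 against -0.01 over all tested probe sets.

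With the compound, 0 of 42 genes of the list passed under either virus, in the mean of both viruses or in the interaction. The lowest p-values under the PPARγ virus were those of Cxcl10 (0.28), Ifngr1 (0.23) and Ptpn11 (0.11) on the higher side and of Ifi35 (-0.20), Ifnar2 (-0.27) and Bst2 (-0.25) on the lower side. Under the null virus they were those of Ifi35 (0.16), Tap2 (0.48) and Ifi27l2b (0.10), and of Psmb10 (-0.47), Ticam1 (-0.31) and Socs3 (-0.48). In the mean of both viruses they were those of Cxcl10 (0.21), Ifngr1 (0.09) and Ptpn2 (0.07), and of Psmb10 (-0.26), Socs3 (-0.36) and Bst2 (-0.22). For the interaction they were those of Psmb10 (0.40), Ptpn11 (0.20) and Ticam1 (0.32), and of Ifi35 (-0.36), Ifnar2 (-0.31) and Tap2 (-0.63).

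The member probe sets differed in which arrays stood out. Null virus compound replicate 3 was lowest in its group for 9 of 10 member probe sets, and null virus vehicle replicate 3 for 7. PPARγ virus compound replicate 3 was lowest for 6, and PPARγ virus vehicle replicates 4 and 3 for 5 and 4. On the high side, null virus compound replicate 4 was highest in its group for 7 probe sets, and PPARγ virus compound replicate 2 and null virus vehicle replicate 1 for 6 each. Null virus compound replicate 3, the lowest array of its own group for 9 of 10 member probe sets, had the Gapdh ratio of 18.9. The same ratio for beta-actin was highest in PPARγ virus compound replicate 2 (14.9), an array that was highest in its group for 6 probe sets, and next highest in null virus compound replicate 3 (14.5). The part of RNA quality in these levels was not tested. Such ranks were not counted over all tested probe sets, so they describe these arrays and no trait of the members.

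Sums of cell type markers were set beside Irf1 and Mx2. These pairings were taken from all marker lists and members and were not set in advance. The 5 islet hormones other than insulin summed to 8424.2, 498.3, 8968.4 and 2337.6 in PPARγ virus compound arrays and to 8518.2, 998.5, 9837.3 and 2448.1 in PPARγ virus vehicle arrays. They summed to 6263.7, 5442.4 and 7456.9 in null virus compound arrays and to 5417.4, 4640.4 and 9223.6 in null virus vehicle arrays. The PPARγ virus arrays numbered 2 and 4, which had the low hormone sums, also had the low Irf1 values of 162.8 to 178.8. All 5 hormones were tested and none passed between viruses. In the mean of both incubations, Sst had 0.63, against -1.01 for Gcg, -1.14 for Ppy, -0.94 for Pyy and -0.37 for Ghrl. Null virus vehicle replicate 3 also had a low Irf1 value, 174.2, at a hormone sum of 4640.4. In that group Irf1 did not rank with the sum, with 232.8 in replicate 1 at 5417.4 and 225.8 in replicate 4 at 9223.6. Without the 4 PPARγ virus arrays numbered 2 and 4, the Irf1 difference between viruses was 0.12 in place of -0.11, and it passed in neither. Those arrays were left out after seeing the data and held the low Irf1 values, so the rise was set by that choice. The part of these cells in the Irf1 level was not tested.

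Endothelial and stromal markers summed to 4169.6, 4157, 3098.8 and 2527.1 in PPARγ virus compound arrays and to 5013.1, 4020.8, 3130.4 and 2909 in PPARγ virus vehicle arrays. They summed to 4428.6, 2761.6 and 4802.1 in null virus compound arrays and to 4479.3, 3160.7 and 4733.5 in null virus vehicle arrays. Within each group, the arrays ranked alike by this sum and by the first Mx2 probe set, except that PPARγ virus compound replicates 1 and 2 were in opposite order. Of 10 such markers on the array, 8 were tested and none passed between viruses. Pecam1 and Vwf, markers of endothelium, were below 39.3 on all 14 arrays. The part of these cells in the Mx2 level was not tested.

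Leukocyte markers summed to 764.4 to 1394.1 in PPARγ virus arrays and 681.7 to 1167 in null virus arrays. Of 17 such markers on the array, 9 were tested and none passed between viruses, while Ptprc, Itgam, Cd3d, Cd3e, Cd8a and Coro1a were below 39.3 on all 14 arrays. No marker of these lists was listed at 0 on every array. Among all marker lists, Pdx1 (-0.52, adjusted p = 0.0313), a transcription factor of beta cells, and Krt19 (1.08, adjusted p = 0.00863), a keratin of duct cells, passed between viruses.

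**Figure D3:**
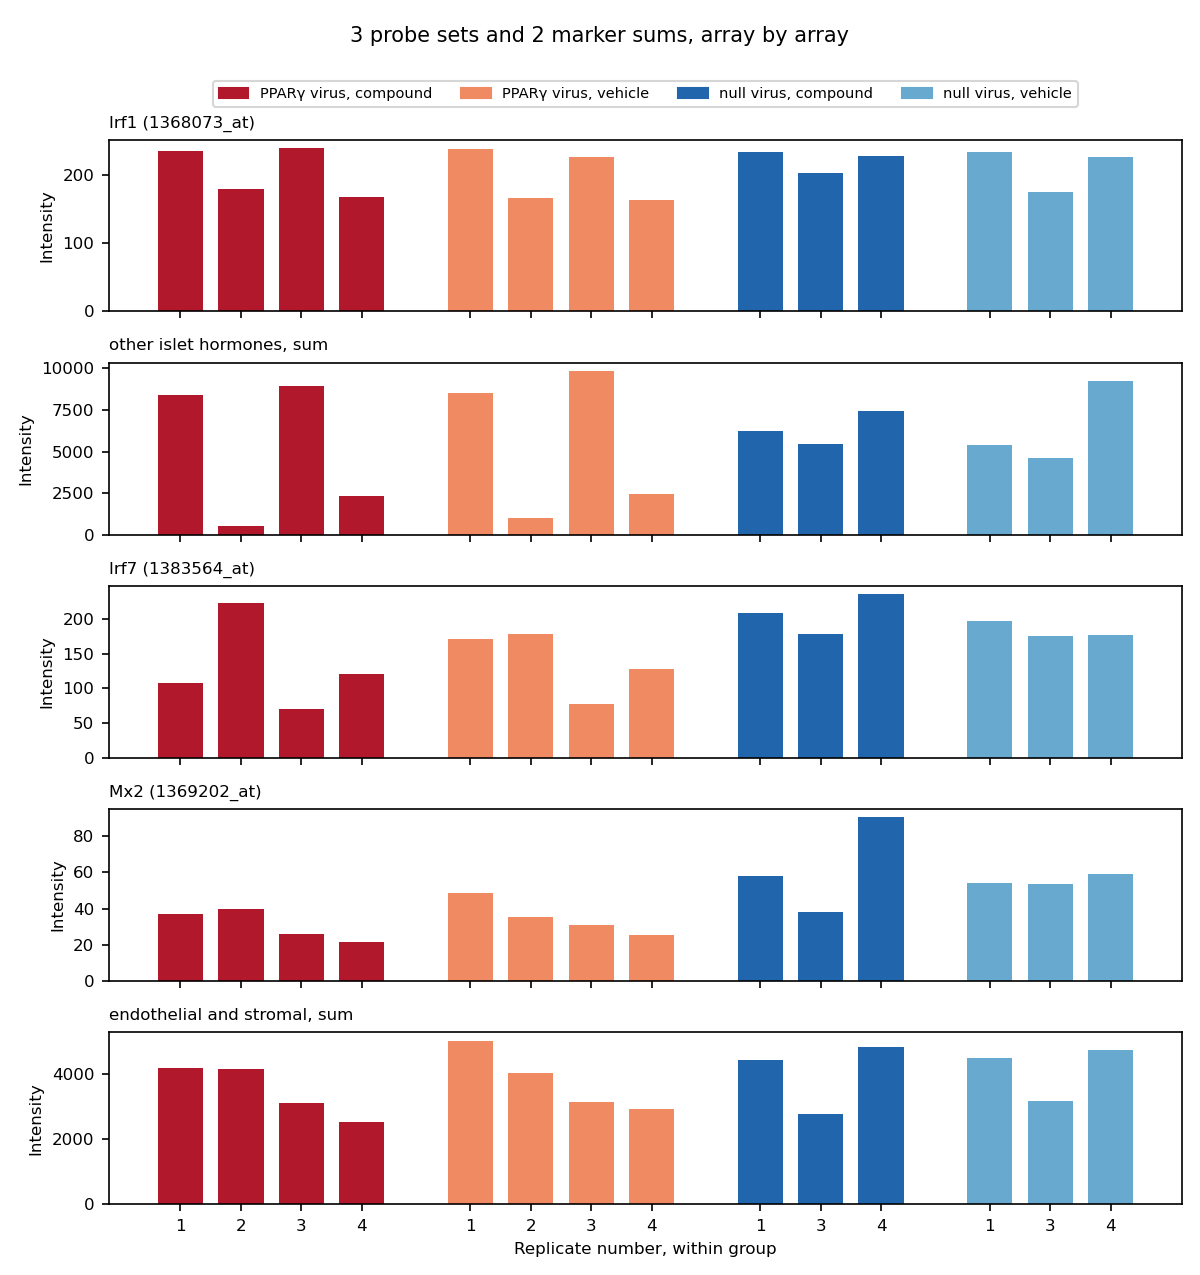
Intensities of 3 member probe sets, Irf1, Irf7 and Mx2, and the summed intensity of 2 marker lists, on each of the 14 arrays, as bars from 0 with groups in colour and replicate numbers below. The PPARγ virus arrays numbered 2 and 4 have both the low Irf1 values (162.8 to 178.8) and the low sums of islet hormones other than insulin (498.3 to 2448.1), and null virus compound replicate 3 is the lowest of its group in both Mx2 (38) and the endothelial and stromal sum (2761.6).

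For each tested member, the genes most like it were named by the highest correlation of deviations from the group means over the 14 arrays. Arrays of the same virus and number deviated together, so these values describe these arrays only. Irf1 was most like Nod1 and Misp3 (r = 0.973 for each), and Irf7 most like Jph2 (r = 0.960) and Casp1 (r = 0.948). Mx2 was most like Ranbp10 (r = 0.933) and Oas1a like Stx8 (r = 0.823). The Stat2 probe sets were most like Notch1 (r = 0.918, first probe set) and Grk2 (r = 0.926, second). Gbp2 was most like Coro7 (r = 0.935) and Eif2ak2 like Ccdc80 (r = 0.896). No member was among the 2 genes named for another member.

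The array deposited under both null virus labels had 210.2 for Irf7 and 44.8 for the first Mx2 probe set, both within the range of the null virus arrays. Its Oas1a intensity of 43.7 and Mx1 intensity of 14.4 were below all 6 null virus arrays. It was used only in alternative fits, where no member was called.

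**Figure D4:**
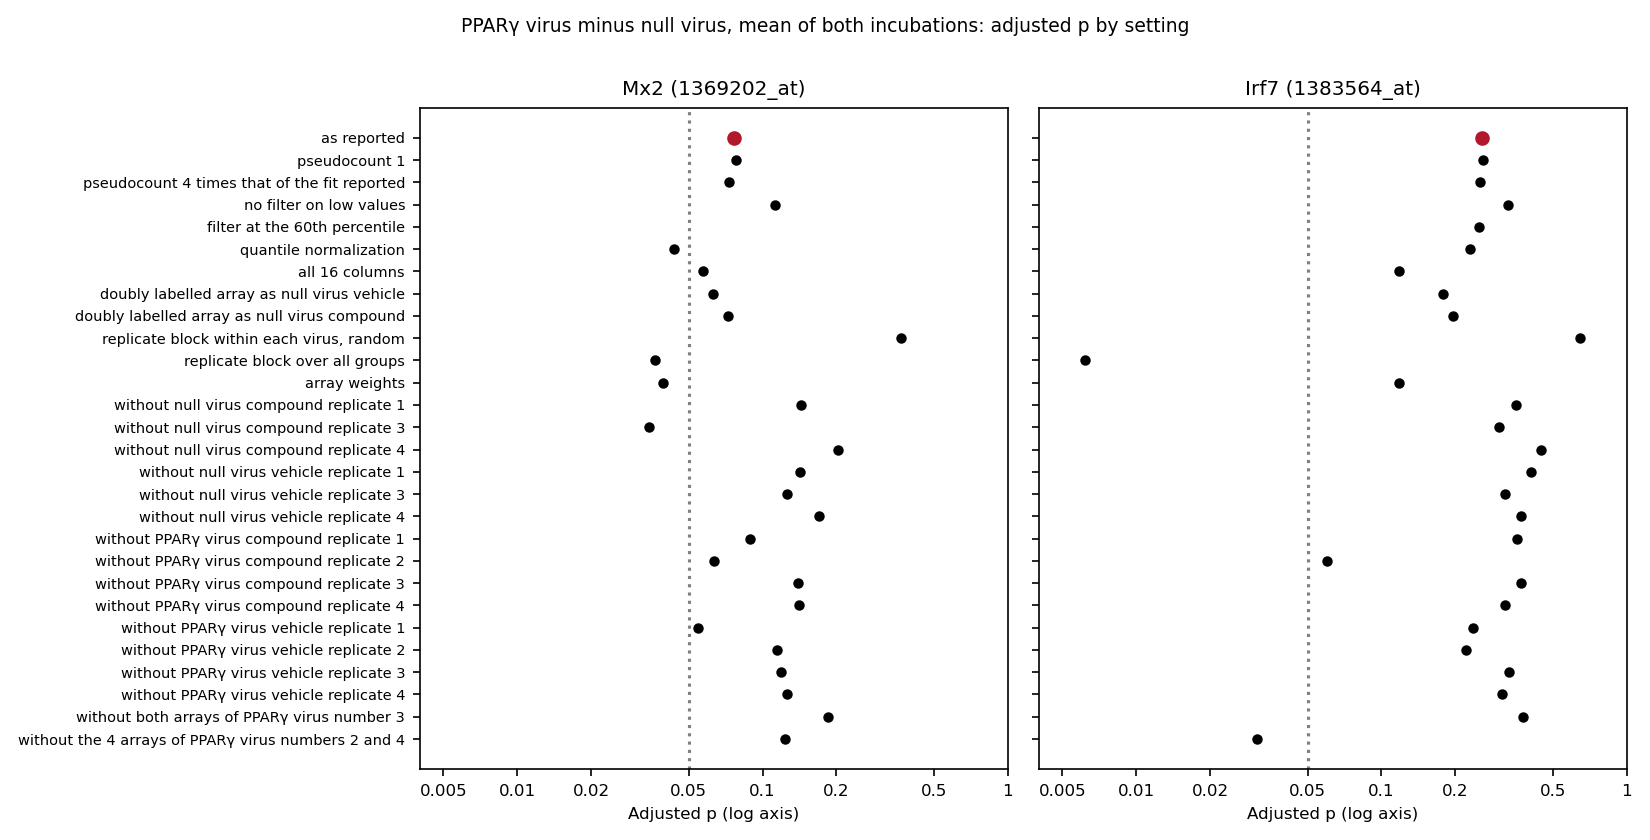
Adjusted p of Mx2 and Irf7 for the PPARγ virus minus the null virus, mean of both incubations, under the fit reported (red) and each alternative (black), on a log axis; the dotted line marks 0.05. Mx2 ranged from 0.0344 to 0.367 and Irf7 from 0.00620 to 0.644; Mx2 has no point for the filter at the 60th percentile, where it was not tested.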

How the data were processed

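RNA of rat islets had been measured on an oligonucleotide array. The values are intensities deposited by the authors, 1 linear value for each of 15923 probe sets, and each array had the same trimmed mean of 150 (2% cut at each end). The software that made them is not given in the sources used here. They were used as deposited, as log2(intensity + 4.6), where 4.6 is the 10th percentile of positive values. The 57 control probe sets were left out. A mean for each of 4 groups was fitted in limma 3.58.1 (R 4.3.3) with a trended empirical Bayes step, which was tested on simulated data. The threshold was an adjusted p of 0.05. The replicate 2 columns of both null virus groups were identical in all 15923 probe sets and were left out. An array counts no molecules, so the number of arrays limits the precision.

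Replicate numbers were checked as pairs through correlations of deviations from group means over tested probe sets. These were 0.445 to 0.702 in the 7 pairs of the same virus and number. Pairs of the same number between viruses had -0.139 to 0.433, with those numbered 1 at 0.299 to 0.433. Pairs that differed in virus and number had -0.402 to 0.338. The numbers were taken to pair vehicle and compound arrays within a virus and not across viruses, which is less clear for number 1. The rule named all 8 members, Pparg, and of the other interferon genes those that passed or, where none passed, the 3 in each direction with the smallest p. The 2 most similar genes of each member were found, and the first is given for most. The members and all gene lists were chosen with earlier results of these data known. Symbols came from the platform annotation. Promoters came from RefSeq (GRCr8). Plots used matplotlib 3.10.9 under Python 3.11.15. Alternatives were another pseudocount, filter, normalization, treatment of the doubly labelled array, replicate block, array weights, the compared groups alone, and leaving out arrays.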

Additional observations from a re-analysis of the deposited data

Results flagged for a closer look

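The second Mx2 probe set (1387283_at) had an intensity of 1 in PPARγ virus vehicle replicate 3, against 21.2 to 22.9 in the other 3 arrays of its group, a gap above Dixon's 95% critical value for 4 samples. Its partner of the same number, PPARγ virus compound replicate 3, was at 1.4. This probe set was below 39.3 on all arrays. It was the only such value among 20 groups of 4 arrays, and chance alone gives about 1 in 20.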

How the results depend on the processing

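No member passed the test in 219 of 225 alternative counts over the 8 contrasts. In the mean of both incubations between viruses, 1 member probe set was called after quantile normalization (Mx2, adjusted p = 0.0435), 1 with array weights (Mx2, 0.0393), 1 without the 4 PPARγ virus arrays numbered 2 and 4, an alternative chosen after seeing the data (Irf7, 0.0311), and 0 to 1 with single arrays left out (Mx2, 0.0344 without null virus compound replicate 3). With the replicate number as a block over all groups, which treats arrays of different viruses as pairs, 2 were called there (Irf7, -0.82, adjusted p = 0.00620; Mx2, -0.82, 0.0363) and 1 between compound arrays (Irf7, -0.97, 0.0188). With the replicate block within each virus, the pairing that the arrays showed, no member was called in any contrast; the block changed no other member call. With single arrays left out, Mx2 ranged from -0.89 to -0.60 and Irf7 from -0.75 to -0.48. Null virus compound replicate 3 held the lowest null virus Mx2 value, so the pass without it is no support for a difference. Mx2 had no value with the filter at the 60th percentile.

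Calls over all probe sets moved with the fit. Between viruses they were 154 in the mean of both incubations, 77 to 134 with single arrays left out and 50 to 414 otherwise; 71 between compound arrays (31 to 71; 41 to 211); 4 between vehicle arrays (3 to 7; 1 to 34); and 67 between PPARγ virus compound and null virus vehicle (39 to 71; 45 to 177). For the compound they were 6 under the PPARγ virus (2 to 7; 2 to 42), 2 in the mean of both viruses (1 to 4; 1 to 16), 0 under the null virus in every fit, and 0 for the interaction (0; 0 to 5).

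Directions reversed in 93 of 1758 member values, 61 of them with a single array left out, and no reversed value passed (lowest adjusted p 0.551). The cause was not tested. Without both PPARγ virus arrays numbered 3, also chosen after seeing the data, these were the first Stat2 probe set (-0.032) and Eif2ak2 (0.0012) for the virus in vehicle, Gbp2 (0.24) for the virus in compound, Gbp2 (0.36) and Eif2ak2 (-0.060) for the compound under the PPARγ virus, Eif2ak2 (-0.079) for the interaction and Gbp2 (0.041) and Eif2ak2 (-0.021) for the compound in the mean of both viruses. Without the 4 PPARγ virus arrays numbered 2 and 4, they were Irf1 (0.15) for the virus in vehicle, Irf1 (0.10) and the first Stat2 probe set (0.070) for the virus in compound, Irf1 (0.17) for PPARγ virus compound against null virus vehicle, Gbp2 (-0.36) for the interaction, Irf1 (0.12) and the first Stat2 probe set (0.41) for the virus in the mean of both incubations and Irf7 (-0.11) for the compound in the mean of both viruses. When the array with both labels counted as null virus compound, they were the second Stat2 probe set (0.012), Mx2 (-0.020) and Oas1a (-0.0018) for the compound under the null virus, Irf1 (0.035) for the interaction and the first Stat2 probe set (0.033) for the virus in the mean of both incubations. When it counted as null virus vehicle, they were Oas1a (0.078) for PPARγ virus compound against null virus vehicle and Irf7 (-0.0081) for the compound in the mean of both viruses. With all 16 columns, they were Oas1a (0.078) for PPARγ virus compound against null virus vehicle, the first Stat2 probe set (0.050) for the virus in the mean of both incubations and Irf7 (-0.0044) for the compound in the mean of both viruses. With quantile normalization, they were Oas1a (0.012) for PPARγ virus compound against null virus vehicle and Mx2 (0.0023) for the compound in the mean of both viruses. With array weights, they were Irf1 (0.015) and Eif2ak2 (-0.069) for the interaction and Irf7 (-0.067) for the compound in the mean of both viruses, and with the block over all groups Irf1 (0.022) for PPARγ virus compound against null virus vehicle.

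With single arrays left out, some ranges crossed 0. For the virus in vehicle, ranges were -0.58 to 0.75 for the first Stat2 probe set and -0.29 to 0.0012 for Eif2ak2. The ranges for the virus in compound were -0.31 to 0.032 for Oas1a, -0.31 to 0.24 for Gbp2 and -0.34 to 0.13 for Eif2ak2. For the virus in the mean of both incubations, the range was -0.49 to 0.17 for the first Stat2 probe set. The ranges for PPARγ virus compound against null virus vehicle were -0.18 to 0.041 for Irf1 and -0.18 to 0.13 for Oas1a. For the compound under the null virus, ranges were -0.057 to 0.15 for Irf1, -0.075 to 0.097 for the second Stat2 probe set, -0.22 to 0.36 for Mx2, -0.051 to 0.29 for Oas1a and -0.22 to 0.25 for Eif2ak2. The ranges for the compound under the PPARγ virus were -0.033 to 0.15 for Irf1, -0.43 to 0.11 for Irf7, -0.21 to 0.048 for the second Stat2 probe set, -0.26 to 0.29 for Gbp2 and -0.086 to 0.17 for Eif2ak2. For the compound in the mean of both viruses, ranges were -0.0025 to 0.11 for Irf1, -0.13 to 0.14 for Irf7, -0.11 to 0.023 for the second Stat2 probe set, -0.19 to 0.097 for Mx2, -0.27 to 0.0074 for Gbp2 and -0.067 to 0.17 for Eif2ak2. The ranges for the interaction were -0.11 to 0.11 for Irf1, -1.16 to 0.17 for the first Stat2 probe set, -0.21 to 0.051 for the second Stat2 probe set, -0.52 to 0.061 for Mx2 and -0.17 to 0.30 for Eif2ak2.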
